A study of Mus musculus with 15 samples.

Results

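The oxidative phosphorylation genes described here are the nuclear genes for subunits of the respiratory chain and of ATP synthase, together with assembly factors and isoforms that share their symbols. They were chosen by symbol in the platform annotation: symbols that start with Nduf, Uqcr or Atp5, the symbols Sdha to Sdhd, and Cox symbols with a number from 4 to 8. Probe sets that name several genes were left out, 10 in all, and each gene was read from its probe set of highest mean over the 15 arrays. This gave 90 genes, from 179 probe sets, of 18193 genes on the array. Of the 90, 85 were above the array median in at least 3 arrays and were tested. Cox7a1, Cox7b2, Cox8b, Ndufa4l2 and Ndufb4 were not. Probe sets that name Ndufb4 together with Ndufb4b and Ndufb4c were among those left out. Ndufb4 was thus read from 1 remaining probe set, whose low signal need not be the level of the gene. The symbol rule itself used no measured value, but earlier results of these data were known and probe sets were picked by mean signal.

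The study profiled thymocytes of young adult C57BL/6 background mice on Affymetrix arrays, with 3 samples in each of 5 sorted groups, to follow T cells through the late steps of their maturation. PreDP cells (CD69-TCRβ-, before positive selection) and PostDP cells (CD69+TCRβ+, after it) are CD4 and CD8 double-positive thymocytes of B2m-/- mice, where only T cells restricted by MHC class II are selected. SM&M1 cells (Qa2-CD69+) and M2 cells (Qa2+CD69-) are successive stages of CD4 single-positive thymocytes from Rag2-GFP BAC transgenic mice, sorted with a GFP gate and with NK1.1, CD25 and GL3 in a dump channel. Tak1-deficient SM&M1 cells (Qa2-CD69+) came from Tak1f/f CD4Cre mice, where Cre driven by the Cd4 gene's regulatory elements deletes Map3k7, the gene of the kinase Tak1, in T-lineage cells. Stage and genotype therefore cannot be told apart between the double-positive and the single-positive groups, nor Tak1 loss and the absence of the Rag2-GFP transgene between the SM&M1 groups. The 3 samples of a group are labelled as biological replicates, without a statement on whether each is another animal, so a p-value here reflects only how much these samples vary, and some of that variation may be technical.

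Oxidative phosphorylation passes electrons from NADH and succinate through complexes I to IV to oxygen, and uses the resulting proton gradient to drive ATP synthase, complex V. Most subunits are encoded in the nucleus and a few core ones in mitochondrial DNA, and assembly factors put the parts together without staying in the finished complex. In thymocytes this pathway supplies energy to cells that switch between rest, selection signals and proliferation.

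Of the 90 genes, 42 were placed in complex I (6 core subunits, 28 accessory subunits and 8 assembly factors, Ndufaf1 to Ndufaf8), 4 to complex II, 8 to complex III, 19 to complex IV and 17 to ATP synthase. The complex IV genes include Ndufa4 and Ndufa4l2, which carry Nduf symbols but are counted there by role. Of the complex IV genes 10 are subunits, 8 are isoforms best known from other tissues, and 1, Cox7a2l, encodes a factor that joins complexes III and IV in supercomplexes. In 82 of the 90 genes the signal was above the array median on all 15 arrays. Values are given as log2(signal + 16), where the signal is the deposited linear intensity; they are levels of 1 probe set each and are not compared between genes.

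Most of these genes varied little over the groups. Over the 85 genes tested, the median range of the 5 group means was 0.48 log2 units, and the range was below 0.5 in 46, from 0.5 to 1 in 28 and above 1 in 11. The moderated F test over the 5 groups, with Benjamini-Hochberg adjustment over 11871 genes, passed at an adjusted p below 0.05 in 11 of the 85, beside 34.9% of all genes tested. These were Cox7a2l, Cox6b2, Ndufa6, Ndufa10, the assembly factors Ndufaf2, Ndufaf4, Ndufaf5 and Ndufaf6, and the ATP synthase genes Atp5l, Atp5g1 and Atp5mpl. Without the second Tak1-deficient array the count was 22, beside 50% of all genes, and without the first PreDP array it was 18, beside 32.7%. In the pairwise comparisons 10 genes passed at least once and 80 never did.

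**Figure D1:**
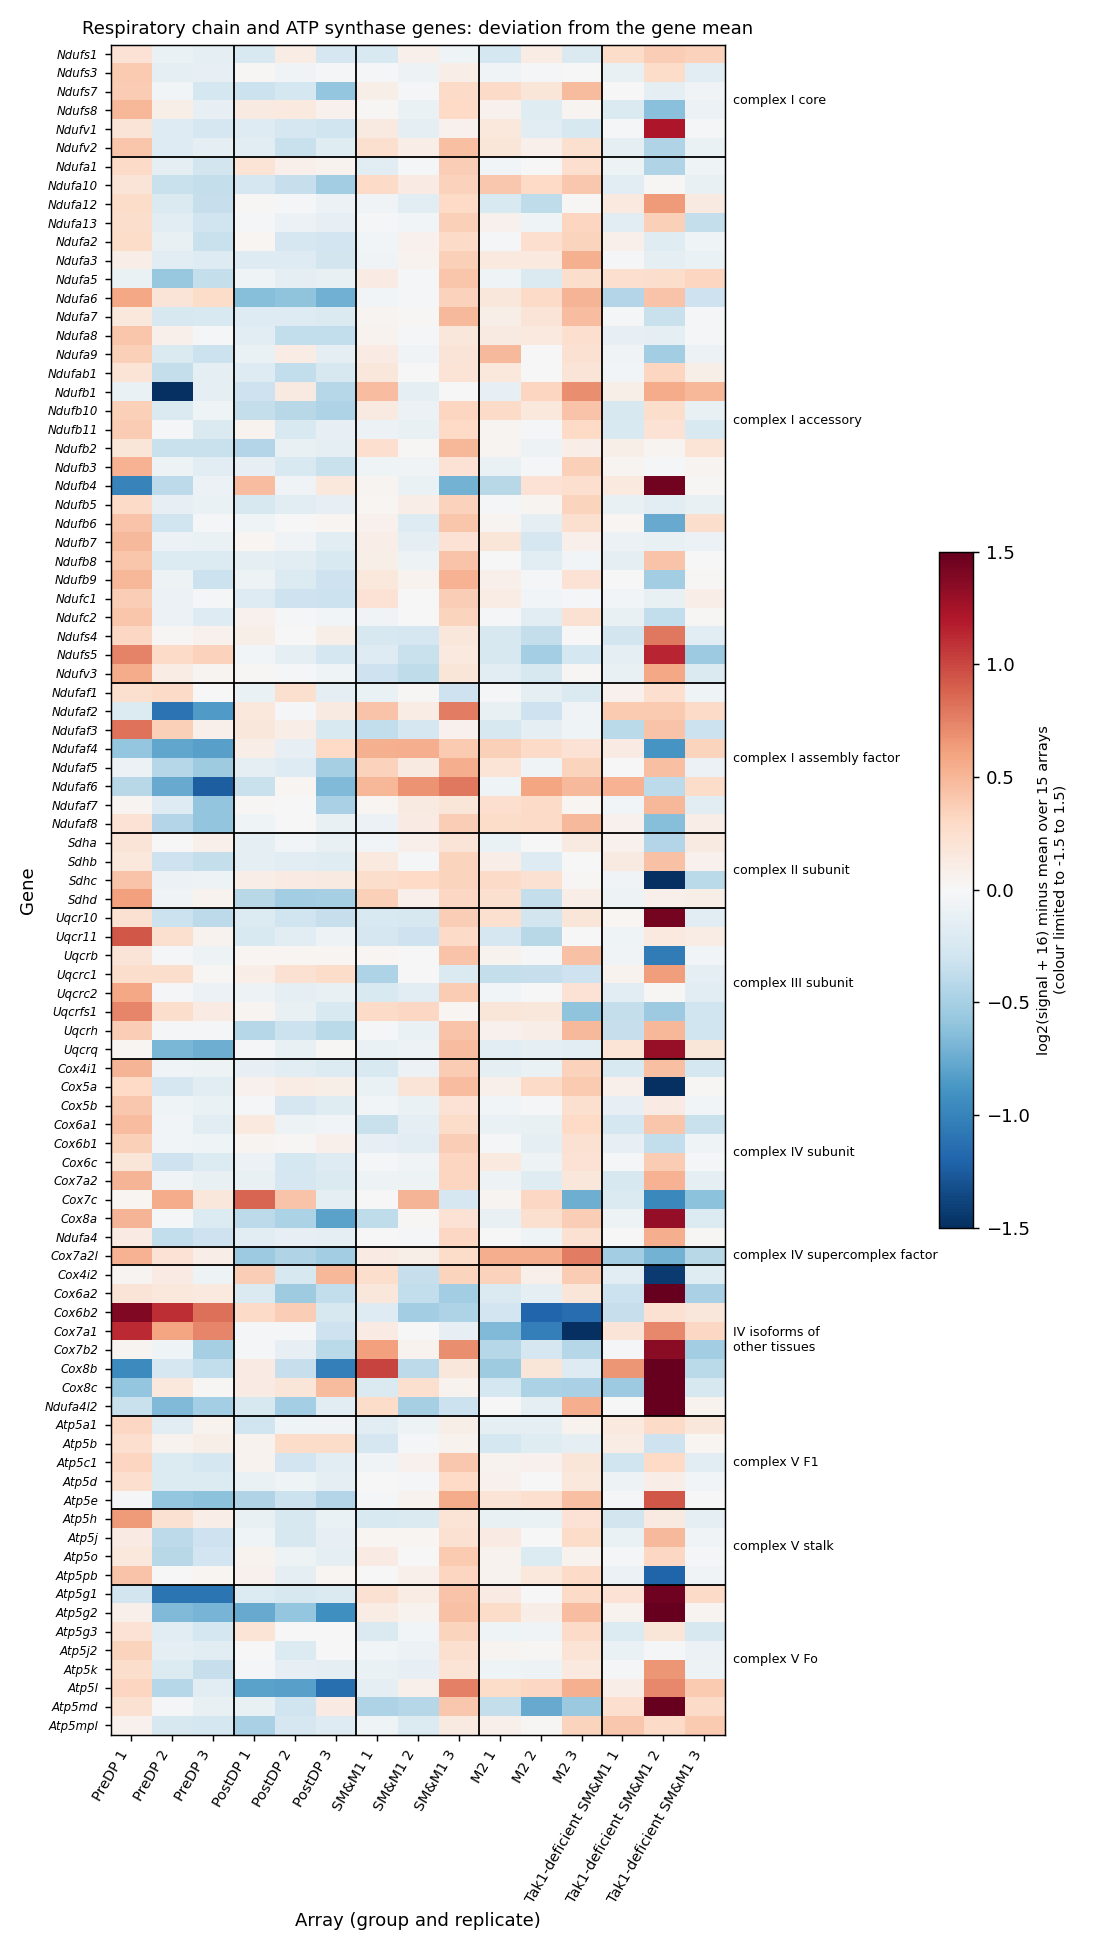
Deviation of log2(signal + 16) from each gene's mean over 15 arrays, for 90 oxidative phosphorylation genes (rows, by complex and role) in 15 arrays (columns, by group and replicate); colours stop at -1.5 and 1.5. Most rows are pale, the arrays PreDP 1, SM&M1 3 and M2 3 are reddish over most rows, the second Tak1-deficient array holds many of the extreme values, and Cox7a2l, Ndufa6 and Atp5l are blue in the PostDP arrays.

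Part of the variation was shared by the genes from array to array. The median deviation of the 90 genes from their means was 0.28, -0.13 and -0.16 in the PreDP arrays, -0.08, -0.14 and -0.16 in PostDP, -0.01, -0.02 and 0.31 in SM&M1, 0.04, -0.03 and 0.22 in M2, while the Tak1-deficient arrays gave -0.05, 0.27 and -0.05. The 4 arrays with high medians (PreDP 1, SM&M1 3, M2 3 and Tak1-deficient 2) were also those of highest mean signal, at 760, 773, 780 and 879, beside 694 to 737 in the other 11. PreDP 1, SM&M1 3 and M2 3 each had the highest median of their group. Every array has the same mean of 500 after trimming 2% at each end, so mean signal differs only through the trimmed probe sets. Most of these genes are bright, so the 2 measures may overlap and are not independent. Leaving out the 4 arrays of highest mean signal also leaves out those with the high medians. What sets these array differences was not tested.

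**Figure D2:**
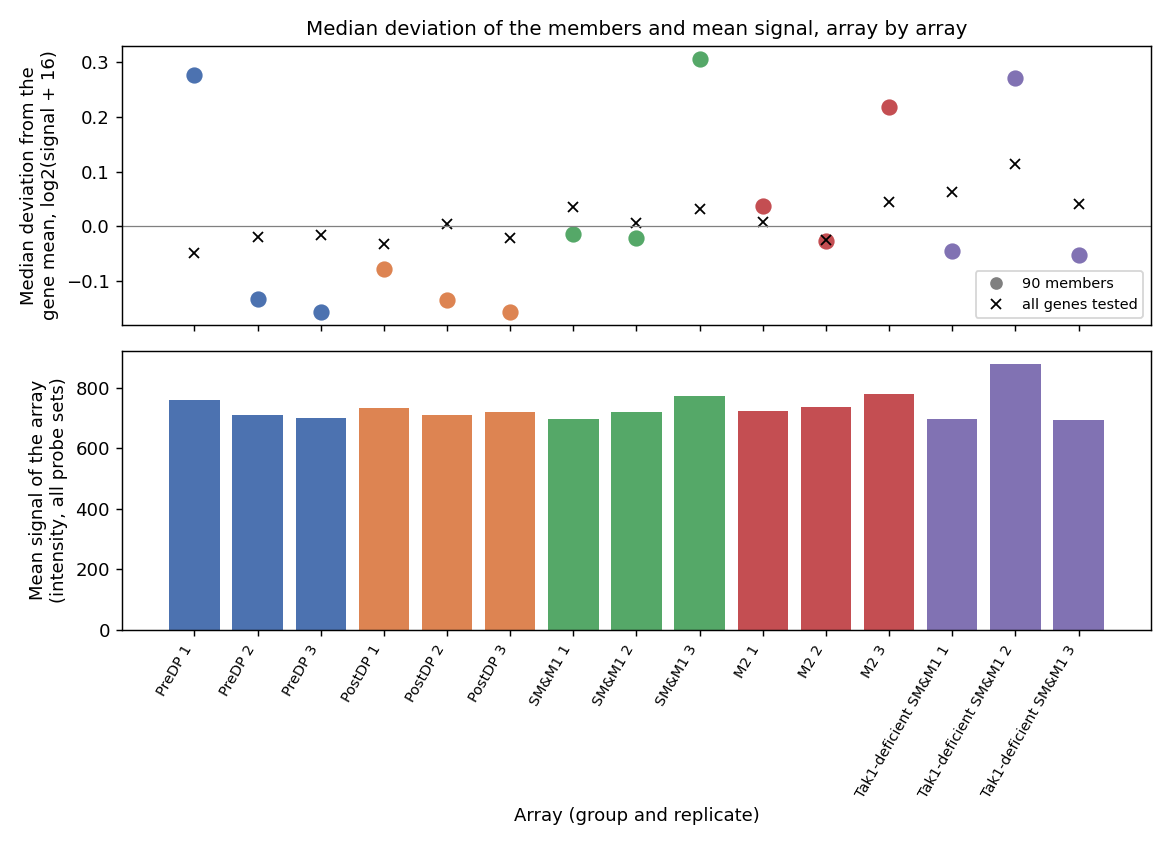
Top, median deviation from the gene mean, on the log2(signal + 16) scale, of the 90 genes (circles) and of all genes tested (crosses) in each of 15 arrays; bottom, mean linear signal of all probe sets of the same array. Circles are at 0.28, 0.31, 0.22 and 0.27 in the 4 arrays with the tallest bars and between -0.16 and 0.04 in the other 11.

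The second Tak1-deficient array stood apart from the rest of the series. Its median signal was 168, beside 80.5 to 121 in the other arrays, its ratio of 3' to 5' Actb probe sets was 1.62 beside 1.02 to 1.18, and its lowest correlation within its group was 0.82, where the 12 arrays of the other groups were at 0.96 or above. Of the sort markers, mean Cd8a was 13.89 in PreDP and 12.74 in PostDP but 7.79 in SM&M1, 6.52 in M2 and 9.63 with Tak1 loss, and Cd69 was 9.10 in PreDP against 13.28 in PostDP. The Cd69 transcript did not follow the surface sort throughout: the CD69- M2 arrays were at 11.64, 11.67 and 11.32, the CD69+ SM&M1 arrays at 12.36, 12.47 and 12.66, and the Tak1-deficient arrays, also sorted as CD69+, at 12.71, 11.09 and 12.91. M2 thus lay above the CD69- PreDP arrays, and the second Tak1-deficient array lay below every M2 array. Map3k7 was 10.40, 10.46 and 10.42 in SM&M1 and 4.76, 6.07 and 5.35 in the Tak1-deficient arrays, with no overlap. B2m was 9.67 in PreDP and 10.10 in PostDP, against 14.36 in SM&M1.

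The promoters of 5 genes are shown because the comparisons below turn on them: 4 whose level was low in PostDP cells (Cox7a2l, Ndufa6, Sdhd and Atp5l) and 1 assembly factor gene that was higher in PostDP than in PreDP (Ndufaf4). Each run is the 250 bases before the annotated start, 5' to 3' on the gene's strand, from RefSeq on GRCm38.p6; capitals mark matches to the core motif of NRF1 or of ETS factors such as GABP (CCGGAAG), both known regulators of respiratory genes, on either strand.
Cox7a2l, chr17:83514334-83514583, minus strand: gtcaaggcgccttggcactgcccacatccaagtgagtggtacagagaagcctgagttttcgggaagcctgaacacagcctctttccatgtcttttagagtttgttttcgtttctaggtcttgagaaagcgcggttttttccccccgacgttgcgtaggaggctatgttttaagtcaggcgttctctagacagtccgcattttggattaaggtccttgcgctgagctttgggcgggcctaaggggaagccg
Ndufa6, chr15:82354292-82354541, minus strand: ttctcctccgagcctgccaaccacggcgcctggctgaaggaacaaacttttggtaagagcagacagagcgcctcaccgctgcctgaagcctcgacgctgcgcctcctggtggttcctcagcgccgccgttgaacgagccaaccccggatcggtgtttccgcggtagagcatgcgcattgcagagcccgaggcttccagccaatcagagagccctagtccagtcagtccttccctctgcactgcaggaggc
Sdhd, chr9:50603850-50604099, minus strand: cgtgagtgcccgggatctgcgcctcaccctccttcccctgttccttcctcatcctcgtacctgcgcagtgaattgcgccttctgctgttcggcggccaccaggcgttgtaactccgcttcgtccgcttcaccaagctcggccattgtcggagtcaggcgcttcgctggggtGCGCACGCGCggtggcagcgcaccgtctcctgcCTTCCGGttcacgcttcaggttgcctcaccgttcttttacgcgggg
Atp5l, chr9:44920743-44920992, minus strand: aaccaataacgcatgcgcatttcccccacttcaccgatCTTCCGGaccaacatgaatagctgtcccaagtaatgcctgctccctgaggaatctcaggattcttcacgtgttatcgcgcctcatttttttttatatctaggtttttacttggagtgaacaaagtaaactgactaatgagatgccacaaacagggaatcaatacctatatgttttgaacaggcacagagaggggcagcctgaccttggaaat
Ndufaf4, chr4:24897833-24898082, plus strand: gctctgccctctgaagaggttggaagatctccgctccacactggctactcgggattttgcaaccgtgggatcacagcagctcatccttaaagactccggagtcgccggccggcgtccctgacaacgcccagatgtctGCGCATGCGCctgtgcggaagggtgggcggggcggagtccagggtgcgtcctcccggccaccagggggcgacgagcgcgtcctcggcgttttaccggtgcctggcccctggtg

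The 5 windows are unlike in these letters. The Sdhd window holds 1 NRF1 match starting at -79 and 1 ETS match at -46, Ndufaf4 an NRF1 match at -113 and Atp5l an ETS match at -212, while neither motif is in the Cox7a2l window. The table's window also covers 50 bases after the start, where Ndufa6 has an NRF1 match at 24 and Atp5l a further ETS match at 25. A window was given for 74 of the 90 genes, and in the whole 300 bases the NRF1 motif was found in 17 (23%), beside 11.6% of 9651 tested genes with a window. The ETS motif was in 19 (25.7%, beside 20.2%), and the YY1 motif AAGATGGCG in 7 (9.46%, beside 3.57%). A match is a string of letters in a window and does not show that a factor binds there.

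The step from PreDP to PostDP follows positive selection. Cox7a2l, the accessory subunit genes Ndufa6 and Atp5l, the complex II anchor Sdhd and the testis isoform Cox6b2 fell, and the complex I assembly factors Ndufaf2 and Ndufaf4 rose. Thus 7 of 90 genes passed (7.78%), 2 higher and 5 lower, beside 14.9% of all genes tested (7.35% higher and 7.57% lower). In 4 genes the PostDP arrays were all above the PreDP arrays and in 21 all below, beside 19.1% and 19.6% of all genes. The median difference of the 90 genes was -0.09 (0.01 over all genes tested), with 29 above 0 and 61 below. In bulk samples, less RNA of these genes per cell and fewer cells that express them cannot be told apart.

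Ndufa6, a complex I accessory subunit that holds the mitochondrial acyl carrier protein, measured 12.74, 12.35 and 12.44 in the PreDP arrays and 11.52, 11.56 and 11.44 in PostDP. All PostDP arrays were lower than all PreDP arrays. The difference was -1.004 ± 0.22 (SE), with an adjusted p of 0.00616, and its promoter above carries no match before the start.

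Cox7a2l measured 13.19, 12.88 and 12.77 in PreDP and 12.12, 12.21 and 12.15 in PostDP, again with no overlap. It fell by 0.78 ± 0.15 (SE; adjusted p = 0.00268). The other 2 probe sets of the gene gave -0.82 and -0.85. The C57BL/6 strain is known to carry a Cox7a2l allele that codes for a shortened protein. Whether this allele bears on the level measured here, or is shared by the mouse lines used, was not tested.

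Sdhd, a membrane anchor of succinate dehydrogenase, measured 11.38, 10.71 and 10.82 in PreDP and 10.35, 10.24 and 10.27 in PostDP, and fell by 0.69 ± 0.20 (SE; adjusted p = 0.0303). The first PreDP array was the highest, and the lowest PreDP array still lay above every PostDP array. The other complex II genes did not pass: Sdha, the catalytic flavoprotein, differed by -0.18, Sdhb, the iron-sulfur subunit, by 0.00, and Sdhc, the other anchor, by 0.03. A second, dimmer Sdhd probe set gave -0.55 and did not pass (adjusted p = 0.392 in the fit over probe sets).

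Atp5l, subunit g of the membrane part of ATP synthase, measured 12.14, 11.39 and 11.64 in PreDP and 11.01, 11.002 and 10.69 in PostDP. The groups did not overlap, and the gene fell by 0.82 ± 0.25 (SE; adjusted p = 0.0441). Same-numbered PreDP and PostDP samples deviated together. With the replicate number as a block in the fit of all groups, the adjusted p was 0.0681. With the block and only PreDP and PostDP in the fit, Atp5l passed.

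Cox6b2, the testis isoform of a complex IV subunit, measured 9.66, 9.38 and 9.09 in PreDP and 8.56, 8.64 and 8.03 in PostDP, and fell by 0.97 ± 0.27 (SE; adjusted p = 0.0255). Its widely expressed counterpart Cox6b1 differed by -0.04 and did not pass.

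Among the assembly factors, Ndufaf4, which helps build the quinone-binding module of complex I, measured 9.66, 9.46 and 9.43 in PreDP and 10.34, 10.13 and 10.54 in PostDP. It rose by 0.82 ± 0.25 (SE; adjusted p = 0.0419), and its second probe set gave 1.09. Ndufaf2, which acts late in complex I assembly, measured 9.32, 8.41 and 8.66 in PreDP and 9.68, 9.50 and 9.65 in PostDP, and rose by 0.82 ± 0.22 (SE; adjusted p = 0.0233). Neither gene's groups overlapped. The other 6 Ndufaf genes did not pass, and lay from -0.40 (Ndufaf3) to 0.48 (Ndufaf6).

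Complex by complex, the median difference was -0.14 over the 34 complex I subunits (28 of them below 0), 0.15 over the 8 assembly factors, -0.09 in complex II, -0.19 in complex III, -0.07 in complex IV and -0.08 in complex V. The 6 core subunits of complex I all lay below 0, and none passed. No gene of complex III passed; its extremes were Uqcrq at 0.42 and Uqcr11 at -0.56.

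The shift of the whole set in this comparison rested on 1 array. Without the first PreDP array the median was 0.03, with 52 of 90 genes above 0, and with each array centred on its median it was -0.24, where all genes tested moved to -0.13. The calls were uneven in how they held over 29 alternatives: Cox7a2l and Ndufa6 passed in all, Cox6b2 missed in 4 (adjusted p up to 0.123), Ndufaf2 in 7 (0.199), Sdhd in 8 (0.123), Atp5l in 13 (0.178) and Ndufaf4 in 14 (0.344). Without PreDP 1 the calls of Atp5l, Cox6b2, Ndufaf4 and Sdhd were lost, without PreDP 2 those of Cox6b2, Ndufaf2 and Ndufaf4, and without PreDP 3 those of Atp5l, Ndufaf2 and Ndufaf4. Without any 1 of the PostDP arrays Atp5l, Ndufaf2, Ndufaf4 and Sdhd did not pass, and without PostDP 3 Cox6b2 did not either. Ndufaf4 also missed without any 1 of the SM&M1 or M2 arrays, and Atp5l without SM&M1 2, any 1 of the M2 arrays or Tak1-deficient 3. The count of 7 became 3 (0 higher and 3 lower, beside 10.3% of all genes) after centring. It became 3, 4, 3, 3 and 2 without PreDP 1, PreDP 2, PostDP 1, PostDP 2 and PostDP 3, where the share of all genes also fell, to 11.6%, 11.4%, 11.8%, 10.6% and 9.89%, and 13 without the second Tak1-deficient array, beside 25.6% of all genes.

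**Figure D3:**
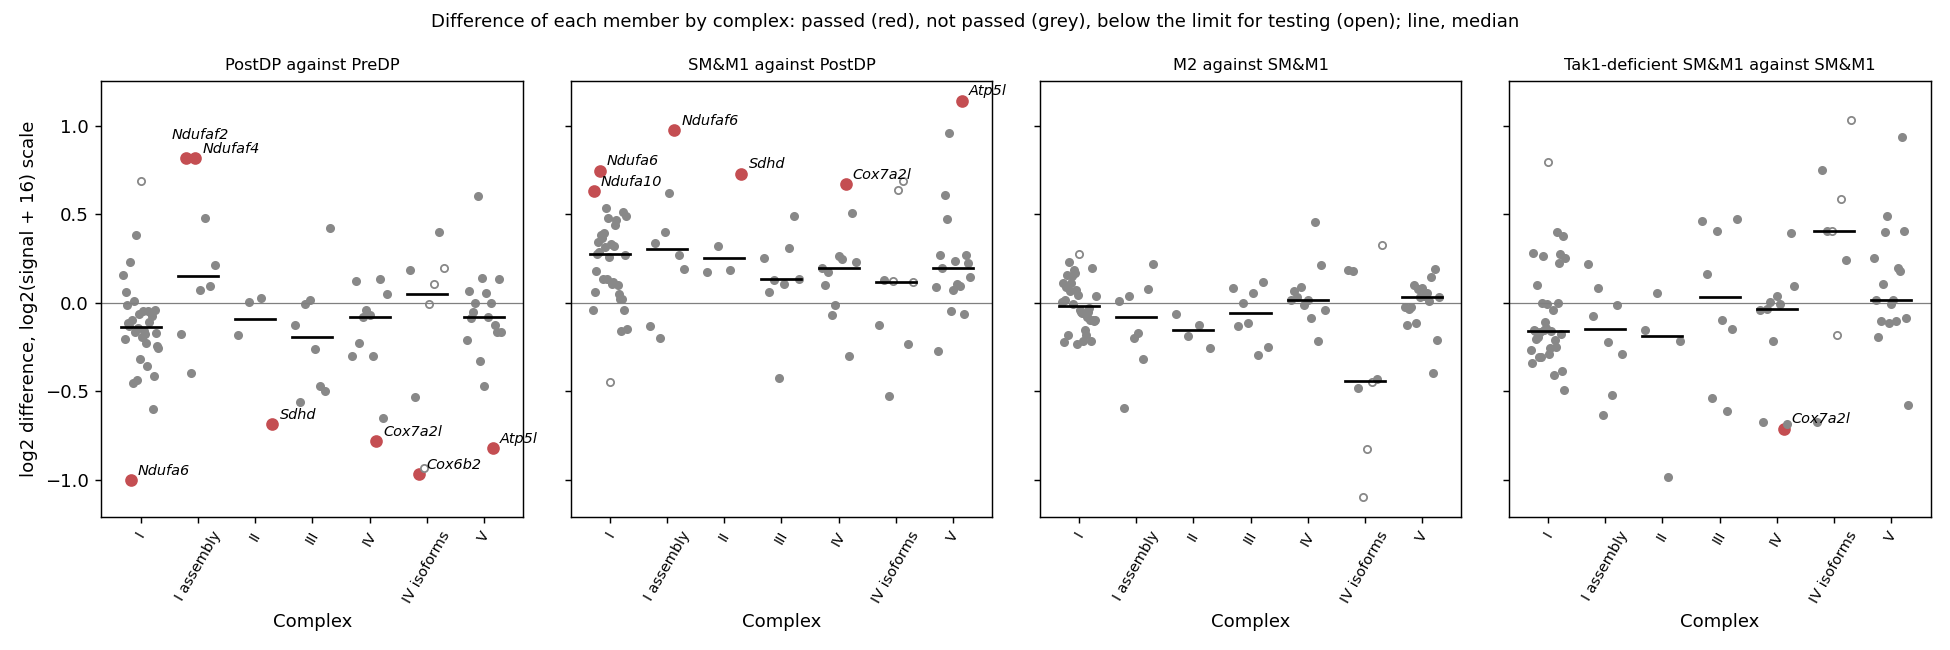
Difference in log2(signal + 16) of each of 90 genes (points) in 4 comparisons (panels), by complex, with assembly factors of complex I and isoforms of other tissues apart. Red points passed at an adjusted p below 0.05, grey points did not, open points were too dim to test, and lines are medians; red points lie on both sides of 0 in the first panel, above 0 in the second, nowhere in the third, and are Cox7a2l alone in the fourth.

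From PostDP to SM&M1, the step to CD4 single-positive cells, Atp5l, Ndufaf6, Ndufa6, Sdhd, Cox7a2l and Ndufa10 rose and no gene fell. These are 6 of 90 genes, all higher, beside 12% of all genes tested (7.84% higher and 4.14% lower). In 38 genes the SM&M1 arrays were all above the PostDP arrays and in 1 all below, beside 23.1% and 17.9% of all genes. The median difference was 0.20 (0.03 over all genes tested), with 73 of 90 above 0. The comparison shares the PostDP arrays with the one before, so a low PostDP value enters both.

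Atp5l showed the largest rise, from the PostDP values above to 11.67, 11.89 and 12.57, a difference of 1.14 ± 0.25 (SE; adjusted p = 0.00979). Sdhd reached 11.12, 10.85 and 11.07, higher by 0.73 ± 0.20 (SE; adjusted p = 0.0280). Ndufa6 reached 12.12, 12.13 and 12.50, higher by 0.75 ± 0.22 (SE; adjusted p = 0.0403). In each of the 3 genes every SM&M1 array lay above every PostDP array.

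Cox7a2l reached 12.79, 12.75 and 12.95 and rose by 0.67 ± 0.15 (SE; adjusted p = 0.00995); its other probe sets gave 0.77 and 0.97. Ndufa10, an accessory subunit of the membrane arm of complex I, went from 11.77, 11.68 and 11.51 to 12.32, 12.15 and 12.38. It rose by 0.63 ± 0.16 (SE; adjusted p = 0.0231), having differed by -0.21 between PreDP and PostDP without passing. The rise in SM&M1 depended on the probe set: with the mean of its 2 probe sets Ndufa10 did not pass. Sdhd did not pass in that setting either.

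Ndufaf6, a factor for an early membrane module of complex I, measured 8.03, 8.39 and 7.69 in PostDP and 8.86, 9.03 and 9.15 in SM&M1. It rose by 0.98 ± 0.28 (SE; adjusted p = 0.0394), and all SM&M1 arrays were higher. Ndufaf5, which modifies a core subunit during assembly, came next among the assembly factors at 0.62 and did not pass (adjusted p = 0.0577).

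The 3 genes for subunit c, which forms the rotor ring of ATP synthase, showed unequal values. Atp5g2 measured 11.84, 12.02 and 11.67 in PostDP and 12.71, 12.65 and 13.04 in SM&M1, without overlap, and its difference of 0.96 ± 0.41 (SE) did not pass (adjusted p = 0.170). Atp5g1 differed by 0.47 and Atp5g3 by -0.05, also without passing. The second Tak1-deficient array, at 14.59 for Atp5g2 against 12.65 and 12.64 in the other 2 of its group, enters the spread of this fit; without that array Atp5g2 was among the 15 genes that passed.

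By complex the medians were 0.27 for complex I subunits, 0.31 for its assembly factors, 0.25 for complex II, 0.13 for complex III, 0.13 for complex IV and 0.20 for complex V. All 4 complex II genes had SM&M1 arrays above all PostDP arrays, with Sdha at 0.17, Sdhb at 0.32 and Sdhc at 0.18. The 1 gene with all SM&M1 arrays below all PostDP arrays was Uqcrc1, a core protein of complex III, at -0.43 (adjusted p = 0.190).

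Atp5l passed in all 29 alternatives; Cox7a2l missed in 2 (adjusted p up to 0.159), Ndufa10 in 7 (0.435), Sdhd in 8 (0.114), Ndufaf6 in 12 (0.175) and Ndufa6 in 13 (0.165). Ndufa6 missed without any 1 of PreDP 2, PreDP 3, the 3 PostDP arrays, the 3 SM&M1 arrays, M2 1 and M2 2, and Ndufaf6 without PreDP 2, PostDP 1, PostDP 3, M2 3 or any 1 of the SM&M1 arrays. Sdhd missed without any 1 of the PostDP arrays, SM&M1 1 or SM&M1 3, Ndufa10 without PostDP 2, PostDP 3, SM&M1 1 or SM&M1 3, and Cox7a2l without SM&M1 3. The count of 6 became 3, 3, 2, 2 and 1 without PostDP 1, PostDP 2, PostDP 3, SM&M1 1 and SM&M1 3, beside 8.64%, 7.68%, 7.41%, 8.34% and 7.39% of all genes. It became 10 without PreDP 1, beside 13.2%, and 15 (14 higher and 1 lower, beside 23.3% of all genes) without the second Tak1-deficient array. Without SM&M1 3 the median was 0.12 and 60 of 90 genes were above 0.

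**Figure D4:**
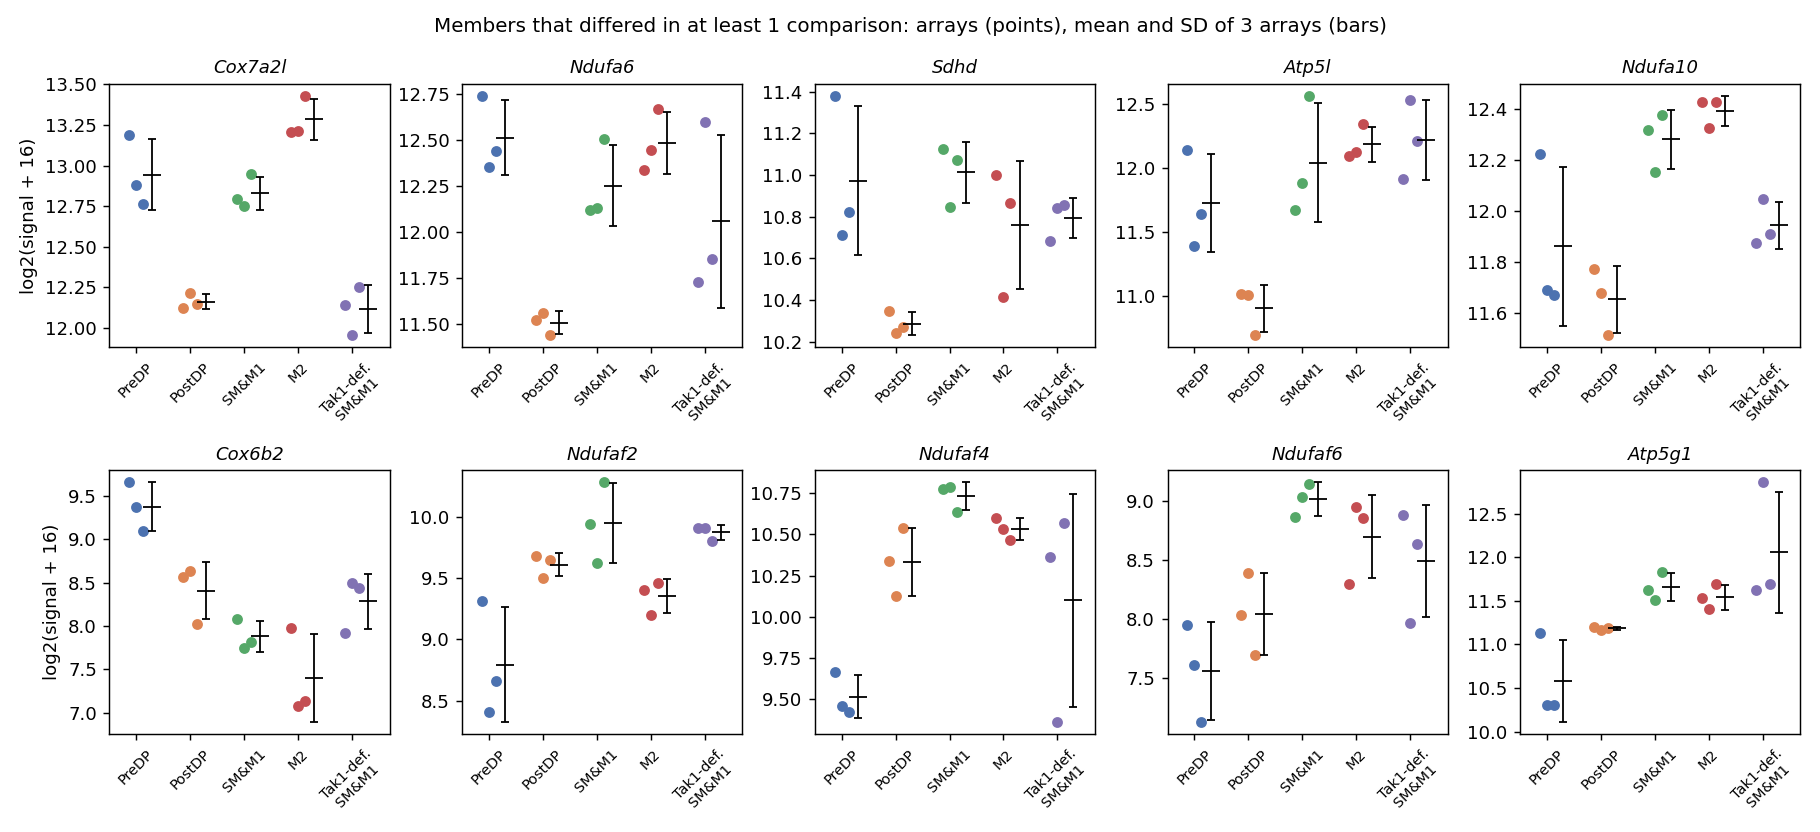
log2(signal + 16) of the 10 genes that passed in at least 1 pairwise comparison, in 15 arrays (points, 3 a group) with the mean and SD of each group (bars); the vertical scale differs between panels. In the Cox7a2l panel the PostDP arrays (12.12 to 12.21) and the Tak1-deficient arrays (11.95 to 12.25) lie below all other arrays, and in the Cox6b2 panel the PreDP arrays (9.09 to 9.66) lie above all others.

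Taking both steps, PostDP had the lowest mean of the 4 Tak1-sufficient stages in 46 of 90 genes (51.1%), beside 23.6% of all genes tested, and SM&M1 had it in 4. The share depended on the first PreDP array: without it PostDP was lowest in 30 of 90 genes (33.3%, beside 23.1%) and PreDP in 43. Centred on the array medians, PostDP was lowest in 57 (63.3%, beside 30.2%). Genes of cycling cells moved over the same steps: 5 of 7 were lower in PostDP than in PreDP, with a median difference of -3.19, and 5 of 7 were higher in SM&M1 than in PostDP, with a median of 2.60. Mki67, a marker of cycling cells, averaged 11.60 in PreDP, 7.94 in PostDP and 10.58 in SM&M1. The part of cycling cells in the values of the oxidative phosphorylation genes was not tested.

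Between SM&M1 and M2, the last thymic step, none of the 90 genes passed, beside 2.33% of all genes tested (0.952% higher and 1.38% lower); 2 had an unadjusted limma p below 0.05. In 1 gene the M2 arrays were all above the SM&M1 arrays and in 6 all below, beside 10.5% and 13.1% of all genes. The median difference was -0.01, with 43 genes above 0 and 47 below, and it was 0.07, with 58 above, without SM&M1 3. Array weights, the one alternative that gave calls, called 2 (Cox7a2l higher and Ndufaf2 lower). Cox7a2l, at 13.21, 13.21 and 13.43 in M2, lay above all SM&M1 arrays, with a difference of 0.45 ± 0.15 (SE; adjusted p = 0.186). Ndufaf2 measured 9.41, 9.20 and 9.46 in M2 and 9.94, 9.63 and 10.28 in SM&M1, a difference of -0.59 ± 0.22 (SE; adjusted p = 0.284). The dim muscle isoform Cox7a1, which was not tested, was at 6.26, 6.12 and 6.00 in SM&M1 and 5.47, 5.10 and 4.52 in M2.

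Tak1 loss in SM&M1 cells went with a lower level of 1 gene. Cox7a2l measured 12.14, 11.95 and 12.25 in the Tak1-deficient arrays, below the SM&M1 values given above, and fell by 0.71 ± 0.15 (SE; adjusted p = 0.0302). This was 1 of 90 genes, beside 1.69% of all genes tested (0.430% higher and 1.26% lower), so the count itself is near the background. In 4 genes the Tak1-deficient arrays were all above the SM&M1 arrays and in 11 all below, beside 11.3% and 9.01% of all genes. The other Cox7a2l probe sets gave -0.55 and -0.63 and did not pass (adjusted p = 0.162 and 0.129 in the fit over probe sets).

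The Cox7a2l call was lost in 11 of 28 alternatives, while the difference stayed between -0.86 and -0.57. Over these 28 the adjusted p reached 0.802; it was 0.394 with only the SM&M1 groups in the fit and 0.0582 for the mean of all probe sets. It was also lost without PostDP 2 (0.0518), M2 2 (0.0508), SM&M1 1 (0.0897), SM&M1 2 (0.0875), SM&M1 3 (0.135) or Tak1-deficient 1 (0.0620). Without the second Tak1-deficient array it was kept.

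The other genes of the Tak1 comparison had a median of -0.06 over all 90 (0.05 over all genes tested), with 37 above 0 and 53 below. Without SM&M1 3 that median was 0.04, and without the second Tak1-deficient array -0.15. Centred, it was -0.21, where all genes tested moved to -0.09. The second Tak1-deficient array held the outermost values of the genes at both ends. Sdhc measured 11.08, 9.53 and 10.73 in the Tak1-deficient arrays against 11.40, 11.43 and 11.46 in SM&M1, a difference of -0.99 that did not pass (adjusted p = 0.123). Atp5md, a small ATP synthase subunit, measured 12.32, 13.85 and 12.35 against 11.61, 11.64 and 12.48, with overlap, a difference of 0.93 that did not pass (adjusted p = 0.202).

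Macrophage and myeloid genes, markers of another cell type, also differed between arrays of the Tak1-deficient and CD4 single-positive groups. Their summed signal over 13 genes was 1050, 5765 and 6280 in the Tak1-deficient arrays, 4585, 722 and 914 in SM&M1, 4895, 938 and 893 in M2, 841 to 990 in PostDP and 593 to 879 in PreDP. No gene of the list passed in any comparison, and 7 of the 13 were bright enough to test. The highest sums were on SM&M1 1, M2 1, Tak1-deficient 2 and Tak1-deficient 3. The part of such cells in the values above was not tested.

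From the first to the last stage, PreDP to M2, Ndufaf4, Ndufaf6, Ndufa10 and Atp5g1 rose and Cox6b2 fell. These 5 of 90 genes stand beside 27.1% of all genes tested (14.6% higher and 12.5% lower). The median difference was 0.09 (0.05 over all genes tested), with 53 above 0; without the first PreDP array it was 0.24, and centred it was -0.06, where all genes tested moved to -0.10. In 11 genes the M2 arrays were all above the PreDP arrays and in 11 all below, beside 24.6% and 23.1% of all genes.

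Cox6b2 had the widest range of group means among the genes tested, 1.98. Against the PreDP values above it measured 7.98, 7.08 and 7.13 in M2, a difference of -1.98 ± 0.27 (SE; adjusted p = 7.89e-05), and it passed in all 29 alternatives. Its SM&M1 values of 8.08, 7.75 and 7.81 overlapped those of M2, and the steps from PostDP to SM&M1 (-0.53) and from SM&M1 to M2 (-0.48) did not pass alone. In the Tak1-deficient arrays it was at 7.92, 8.49 and 8.44.

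Ndufaf6 measured 7.95, 7.60 and 7.12 in PreDP and 8.29, 8.95 and 8.85 in M2, higher by 1.14 ± 0.28 (SE; adjusted p = 0.00795). Ndufaf4 was at 10.60, 10.53 and 10.46 in M2, higher than in PreDP by 1.01 ± 0.25 (SE; adjusted p = 0.00742). Over the 8 assembly factors the median difference between M2 and PreDP was 0.54, beside 0.06 over the 34 complex I subunits. Of the 8, 2 passed (25%), and of the 34, 1 (2.94%), beside 27.1% of all genes tested. In 4 of the 8 all M2 arrays lay above all PreDP arrays and in 2 below, beside 24.6% and 23.1% of all genes. The calls of Ndufaf4 and Ndufaf6 were lost with each array centred on its median.

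Atp5g1, a gene for subunit c, measured 11.13, 10.31 and 10.31 in PreDP and 11.53, 11.40 and 11.69 in M2, higher by 0.96 ± 0.30 (SE; adjusted p = 0.0283). This call depended on the probe set: with the mean of its 2 probe sets Atp5g1 did not pass. Ndufa10 measured 12.22, 11.69 and 11.67 in PreDP and 12.43, 12.33 and 12.43 in M2, higher by 0.53 ± 0.16 (SE; adjusted p = 0.0260). In both genes the first PreDP array was the highest of its group and no array of PreDP reached M2. Over the 29 alternatives Ndufaf4 missed in 1 (adjusted p up to 0.125), Ndufaf6 in 2 (0.101), Atp5g1 in 7 (0.324) and Ndufa10 in 9 (0.332). The count of 5 became 11 without PreDP 1, beside 24.7% of all genes, and 3 without PreDP 2 or any 1 of the M2 arrays, beside 21.6% to 22.9%. It became 16 without the second Tak1-deficient array, beside 40.1% of all genes, 3 (0 higher and 3 lower, beside 20.1%) after centring, and 9 (6 higher and 3 lower, beside 26.2%) after quantile normalization. Atp5g1 and Ndufa10 were the calls lost without PreDP 2, PreDP 3, M2 1, M2 2 or M2 3.

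At the other end, the flattest genes came from several complexes. Ndufs3, a core subunit of complex I, had a range of 0.07 over its group means, with means of 11.92 in PreDP, 11.86 in PostDP, 11.88 in SM&M1, 11.85 in M2 and 11.88 with Tak1 loss. The next were Cox6a1 (0.15), Atp5j2 (0.16), Atp5g3 (0.17) and the catalytic complex II subunit Sdha (0.18). The catalytic ATP synthase subunit Atp5b had means from 13.13 in M2 to 13.53 in PostDP, and its partner Atp5a1 from 12.48 in PostDP to 12.82 in Tak1-deficient cells; neither passed the F test. ND5, the 1 mitochondrially encoded respiratory gene with a probe set of its own here, had group means from 13.65 to 13.80, with 14.91 on the second Tak1-deficient array against 13.13 and 13.09 on the others of that group, and passed in no comparison.

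The isoforms of other tissues were mostly dim. Of the 8, 4 were below the limit for testing, and Cox4i2, a lung isoform, was above the array median on 9 of 15 arrays. Cox7a1 had means of 6.94 in PreDP, 6.01 in PostDP, 6.13 in SM&M1, 5.03 in M2 and 6.53 with Tak1 loss, and was above the array median on 1 array. Cox6a2, Cox8b and Ndufa4l2 reached their highest values, 9.74, 7.91 and 8.26, on the second Tak1-deficient array.

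Genes around the respiratory chain were taken from lists chosen for their role. From PreDP to PostDP, 3 of 29 assembly factors outside the symbol rule rose and 2 fell. Sco2 and Cox10, which supply copper and haem to complex IV, rose by 1.06 ± 0.20 and 0.78 ± 0.15 (SE), and Surf1, another complex IV factor, fell by 0.64 ± 0.18 (SE). Of 17 regulators of mitochondrial biogenesis 2 rose, Pprc1, a coactivator of the PGC-1 family, by 1.40 ± 0.26 (SE) and Myc by 1.32 ± 0.20 (SE). Of 12 genes of the citric acid cycle none passed, and 0 had an unadjusted limma p below 0.05. Of 76 genes of the mitochondrial ribosome 2 rose and 2 fell, and of 24 of mitochondrial protein import 2 rose. Of 11 genes of pyruvate entry 1 fell, and of 11 electron and adenine nucleotide carriers 1 fell (9.09% of each list). The calls made up 17.2% of the assembly factors, 11.8% of the regulators, 5.26% of the ribosome and 8.33% of import. Of all genes tested 14.9% passed.

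From PostDP to SM&M1 the genes of these lists that passed were higher, apart from 1 of pyruvate entry. Of all genes tested 7.84% were higher and 4.14% lower. The mitochondrial ribosome had 6 of 76 genes higher (7.89%) and none lower, a share near that of all genes. Its median was 0.28, with 66 genes above 0 (86.8%), beside 0.03 and 52.7% over all genes tested. Protein import had 1 of 24 higher (4.17%), with a median of 0.32. Of the 29 assembly factors 4 rose (13.8%). Sdhaf1, an assembly factor of complex II, led at 1.60 ± 0.30 (SE). Nubpl, which delivers iron-sulfur clusters to complex I, came next at 1.31 ± 0.24 (SE). Suclg2, a subunit of succinyl-CoA synthetase, rose by 1.12 ± 0.24 (SE) as 1 of 12 citric acid cycle genes. Of 11 genes of pyruvate entry 1 fell, Pdp2, by 0.57 ± 0.14 (SE), and of 11 electron and adenine nucleotide carriers 1 rose, Etfb, by 0.54 ± 0.16 (SE). None of 17 biogenesis regulators passed.

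Between SM&M1 and M2, Mrps6 of the mitochondrial ribosome fell by 0.76 ± 0.18 (SE). No other gene of these lists passed, beside 2.33% of all genes tested. With Tak1 loss none passed, beside 1.69% of all genes tested. The median was then -0.09 over the mitochondrial ribosome and -0.16 over protein import. From PreDP to M2 the assembly factors had 7 genes higher and 2 lower of 29 (31%). Sdhaf1 led at 1.65 ± 0.30 (SE), then Sco2 at 1.25 ± 0.20 (SE). Of all genes tested 27.1% passed, 14.6% higher and 12.5% lower. The mitochondrial ribosome had 7 of 76 higher and none lower (9.21%). Protein import had 3 of 24 higher, led by Timm10 at 1.70 ± 0.21 (SE), and 1 lower (16.7%). Of 11 genes of pyruvate entry 3 fell and none rose, among them Dlat, a core enzyme of the pyruvate dehydrogenase complex, by 0.76 ± 0.19 (SE). Of 12 citric acid cycle genes 1 rose and 1 fell (16.7%), and of 11 carriers 2 fell and none rose (18.2%). Of 17 biogenesis regulators 3 rose and 2 fell (29.4%). Atpif1, the inhibitor of ATP synthase, fell by 1.07 ± 0.29 (SE). Gabpb1, a subunit of the ETS factor GABP, fell by 1.26 ± 0.26 (SE), and Myc rose by 2.30 ± 0.20 (SE).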

How the data were processed

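RNA from sorted thymocytes was amplified in a single round, biotin-labelled and hybridised to 1 array per sample, as the labels' protocols state. What the authors deposited is a linear intensity for each of 45101 probe sets on 15 arrays. The authors' algorithm is not given in the sources used here; every array has a mean of 500 after trimming 2% at each end, so arrays had been scaled before they were deposited. They were used without further normalization, as log2(intensity + 16), a scale on which changes of dim genes come out too small.

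Gene names came from the platform annotation, with symbols updated to RefSeq (GRCm38.p6) by Entrez number. For each of 18193 genes the probe set of highest mean was kept; 34945 probe sets named 1 gene, and 932 naming several were not used. The 11871 genes above the array median in at least 3 arrays were tested with limma 3.58.1 in R 4.3.3: 5 group means, 10 residual degrees of freedom, moderated statistics without a replicate block, and p-values adjusted over those genes by Benjamini-Hochberg. A gene passed at an adjusted p below 0.05. SEs are those of the fit, and each mean rests on 3 arrays, whose number limits the precision. The script was tested on simulated data.

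Same-numbered samples deviated together between PreDP and PostDP (correlations 0.339, 0.275 and 0.411) and between SM&M1 and M2 (0.553, 0.436 and 0.326), so the label numbers were taken to pair them; other comparisons showed no such pairing. Alternatives were the replicate block, filters, normalizations, pseudocounts, probe set choice, fit options and leaving out each array; fits without the Tak1-deficient group or without the 4 arrays of highest mean signal were added after seeing the data. Members, lists and tests were chosen with earlier results of these data known. Named were all genes that passed, the extremes of each complex, core subunits, isoform families, the widest and flattest ranges, up to 3 genes per pathway list, and check genes; Ndufaf5 and Atp5mpl passed the F test alone. Markers of other cell types are given in the closing section.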

Additional observations from a re-analysis of the deposited data

How the results depend on the processing

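No call of a named gene changed sign in any alternative run. Leaving out 1 array at a time gave 2 to 13 members that passed for PostDP against PreDP, beside 9.89% to 25.6% of all genes. For SM&M1 against PostDP it gave 1 to 15, beside 7.39% to 23.3%. M2 against SM&M1 gave 0 to 0, beside 0.728% to 5.78%, and the Tak1 comparison 0 to 1, beside 0.55% to 3.04%. M2 against PreDP gave 3 to 16, beside 21.6% to 40.1%, and the F test 9 to 22, beside 28.8% to 50%. With the 4 arrays of highest mean signal left out, the counts were 18 for SM&M1 against PostDP, 2 for Tak1, 22 for M2 against PreDP and 30 for the F test, beside 21.3%, 2.21%, 36.1% and 46.6% of all genes; without the Tak1-deficient group they were 11 for PostDP against PreDP, 13 for SM&M1 against PostDP and 13 for M2 against PreDP, and 19 for the F test over the other 4 groups, beside 24.7%, 22.3%, 39.3% and 46.8%. Array weights gave 16, 23, 2, 32 and 37 for PostDP against PreDP, SM&M1 against PostDP, M2 against SM&M1, M2 against PreDP and the F test, beside 31.1%, 28.5%, 7.84%, 46.3% and 57.1% of all genes, so the share over all genes rose too. Centring gave 3, 1, 0, 3 and 5 for PostDP against PreDP, SM&M1 against PostDP, Tak1, M2 against PreDP and the F test, beside 10.3%, 6.95%, 0.817%, 20.1% and 23.4%. With only the compared groups in the fit, 12, 0 and 8 passed for SM&M1 against PostDP, Tak1 and M2 against PreDP, beside 20.8%, 0.0421% and 32.1%. Without a filter 2 and 0 passed for SM&M1 against PostDP and Tak1, beside 5.88% and 0.627%. The filter at the 75th percentile and quantile normalization both gave 9 for M2 against PreDP (35.4% and 26.2% of all genes) and 17 for the F test (45.4% and 34.2%). Trend and robust options gave 8 and 18 (27.9% and 36.4%), and the mean of all probe sets gave 0 for Tak1 and 8 for M2 against PreDP (1.55% and 26.8%). The cause of these moves was not tested. Running without a filter adds genes to the adjustment, and leaving out arrays leaves fewer samples. Counts both fell and rose when arrays were left out.

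With the replicate block in the fit of all groups, 6, 4, 0, 1 and 5 members passed in the 5 comparisons, ordered as above. The F test then had 12. In each of these tests the share over all genes was slightly below that of the fit without the block. With the block and only the groups compared, 10, 7, 0, 0 and 6 passed, beside 22.8%, 15.4%, 5%, 0% and 29.3% of all genes. Without the block, the fits of only the groups compared gave 18.9%, 20.8%, 3.61%, 0.0421% and 32.1%. The block thus went with a higher share for PostDP against PreDP and M2 against SM&M1. It went with a lower share for SM&M1 against PostDP, for M2 against PreDP and for Tak1, where no gene tested passed. Where the numbers pair the samples the block in the fit of all groups changed 1 call, that of Atp5l. With only PreDP and PostDP in the fit, the block kept that call.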

Other observations

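Markers of other cells gave the following values. From PreDP to PostDP 1 of 9 natural killer T and innate-like genes and 1 of 3 regulatory T cell genes were higher and 2 of 5 B cell genes lower; from PostDP to SM&M1 1 of 9 natural killer T genes was higher and 1 of 3 regulatory T and 2 of 5 B cell genes lower. In the later steps 1 regulatory T cell gene was lower from SM&M1 to M2, and 1 regulatory T and 1 natural killer T gene were lower with Tak1 loss. None of 2 gamma delta T cell, 5 epithelial and 5 dendritic cell genes passed in these 4 comparisons. Only 3 of the epithelial, 4 of the dendritic and 2 of the 3 regulatory T cell genes were bright enough to test. The 3 erythroid genes were below the limit for testing. From PreDP to M2, 4 of 9 natural killer T genes were higher, 1 regulatory T cell gene was lower, and of 5 B cell genes 1 was higher and 2 were lower. Of 11 sort and stage markers 2 were higher and 4 lower from PreDP to PostDP, 4 higher and 3 lower from PostDP to SM&M1, 2 higher from SM&M1 to M2, and 3 lower with Tak1 loss. Of all genes tested 14.9% passed from PreDP to PostDP, 12% from PostDP to SM&M1 and 2.33% from SM&M1 to M2. With Tak1 loss 1.69% did, and from PreDP to M2 27.1%. The part of these other cells in the values of the oxidative phosphorylation genes was not tested.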
